A study of Homo sapiens with 12 samples.

Results

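The genes described here encode 9 human enzymes that edit nucleic acids or restrict viruses, namely APOBEC3A, APOBEC3B, APOBEC3C, APOBEC3D, APOBEC3F, APOBEC3G and APOBEC3H, SAMHD1 and ADAR. They were chosen by symbol, for their known function, from the 58288 genes listed in the expression table. Earlier results of these data were known when the choice was made. Expression was measured by RNA-Seq of polyadenylated RNA in FaDu cells, an established head and neck squamous cell carcinoma (HNSCC) line grown in culture. All groups carried Cas9 and a guide RNA, with a non-targeting guide in the STING WT cells and a guide against STING in the STING KO cells, and it is not stated in the sources used here whether the STING KO cells were 1 clone. Cells of each genotype were either unirradiated (0 Gy) or irradiated (RT) with 4 fractions of 2 Gy on successive days, giving 4 groups of 3 libraries, and the time of RNA collection after the last fraction is not given in the labels. The labels also do not say whether the 3 libraries of a group came from separate cultures, so p-values measure the spread between these libraries, which may be technical.

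The APOBEC3 enzymes are cytidine deaminases that turn cytosine into uracil in single-stranded DNA, which can block the copying of retroviruses and retrotransposons and, for some members, mutate the DNA of tumor cells. SAMHD1 is a triphosphohydrolase that breaks down deoxynucleotides and thereby starves reverse transcription, and it also takes part in DNA repair at stalled forks and breaks. ADAR deaminates adenosine to inosine in double-stranded RNA, which keeps self RNA from being sensed as foreign. Several of these genes are known to be induced by interferon, which can be produced downstream of STING, a sensor of cyclic dinucleotides made when DNA is present in the cytosol.

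TMEM173, the gene that encodes STING, was checked first. Its TPM (transcripts per 1000000, a level scaled for gene length and library total) was 21.1 to 26.1 in the 6 STING WT libraries and 5.18 to 7.41 in the 6 STING KO libraries. All libraries therefore matched their genotype labels, although transcript of the targeted gene remained in STING KO cells. Squamous epithelial markers were abundant, with 8 of 8 at a TPM of at least 1 and a summed TPM between 6425 and 9049. Of 8 blood cell markers, PTPRC, CD3E, MS4A1 and HBB did not pass a TPM of 0.241 in any library, and the summed TPM of 19.5 to 34.9 came mostly from CD68. Of 6 fibroblast markers only COL1A1 passed a TPM of 1. The values are TPM, which keep no read depth, so no counting error can be attached to them. Each result refers to the RNA of all cells of a culture, in which fewer cells expressing a gene and less RNA per cell cannot be told apart.

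The members spanned a wide range of levels in these cells. In unirradiated STING WT cells mean TPM was highest for ADAR at 205 ± 5.57 (SD, n = 3), followed by APOBEC3C at 140.2 ± 2.28, APOBEC3B at 90.5 ± 5.95, SAMHD1 at 43.3 ± 4.44 and APOBEC3F at 11.4 ± 0.145. In each of the 4 groups these 5 genes kept this order, and the libraries of neighbouring genes did not overlap. The other 4 members were near the limit of detection, with a highest TPM in any library of 2.08 for APOBEC3A, 1.66 for APOBEC3H, 1.63 for APOBEC3D and 0.530 for APOBEC3G, and their libraries overlapped in most groups. APOBEC3A was listed at 0 in 4 of the 12 libraries. Tests used log2(TPM + 1) of the 15973 genes whose TPM reached 1 in no fewer than 3 libraries. APOBEC3G did not pass this filter, which left 8 of the 9 members. An adjusted p is from limma, corrected over all 15973 genes by the Benjamini-Hochberg method, and a gene is called below when it is under 0.05.

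**Figure D1:**
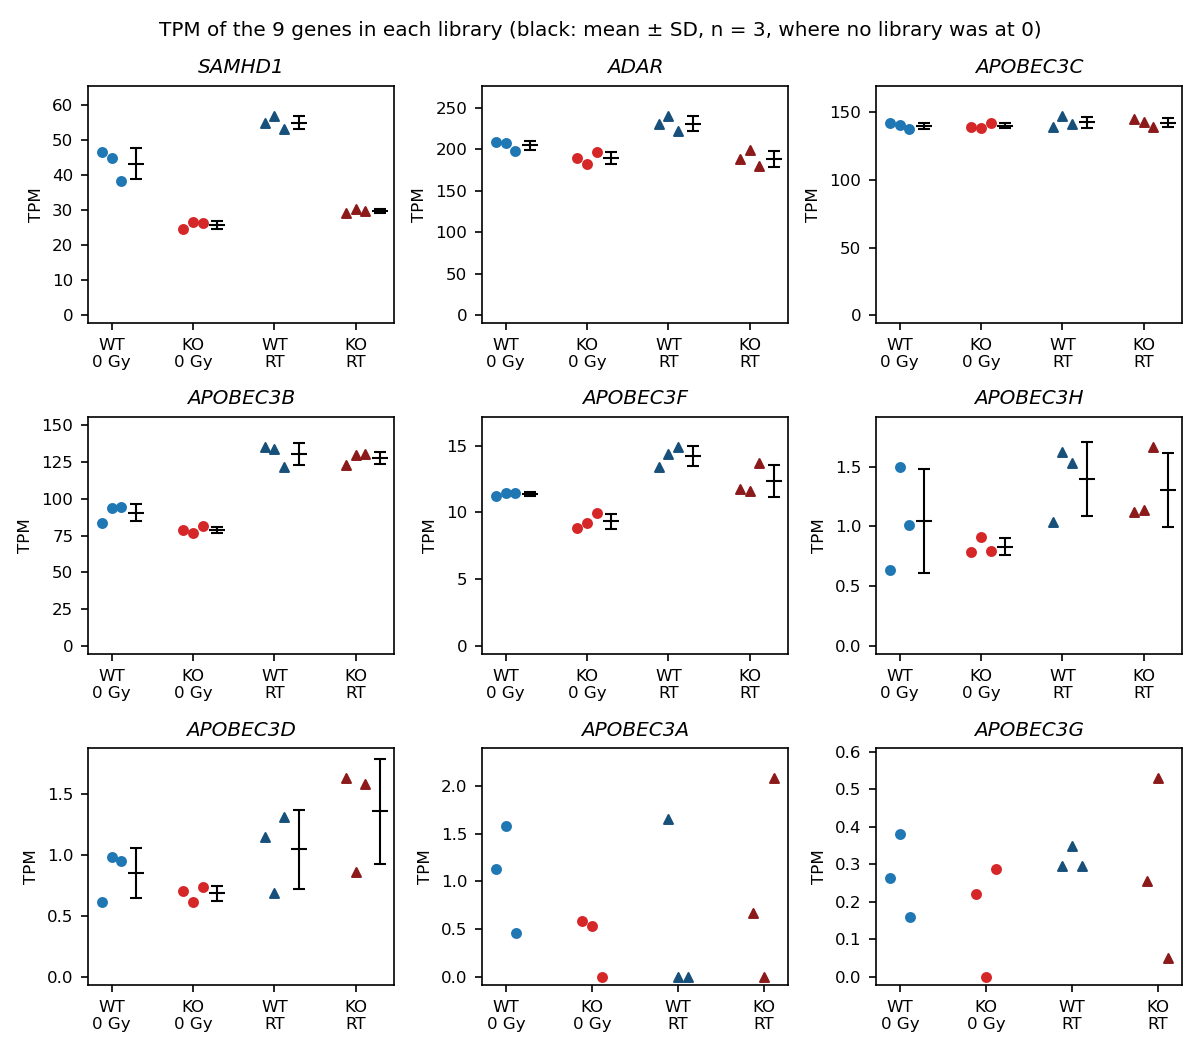
TPM of each of the 9 genes on its own linear axis, with 1 point per library (circles, 0 Gy; triangles, RT; blue, STING WT; red, STING KO) and black bars for the mean ± SD of 3 libraries, left out for APOBEC3A and APOBEC3G because libraries were at 0. SAMHD1 was between 24.5 and 30.2 in STING KO cells and between 38.3 and 57.0 in STING WT cells, APOBEC3B was higher in every irradiated library, and APOBEC3C lay between 138 and 147 throughout.

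The first comparison was between genotypes, with and without radiation. SAMHD1 was lower in STING KO cells at both doses, ADAR was lower after RT, and no member was called higher. At 0 Gy 1 of the 8 tested members was called, SAMHD1, compared with 1.73% of all tested genes. After RT 2 were called, SAMHD1 and ADAR, compared with 3.59% of all tested genes. All 3 of these calls were lower in STING KO cells. Over both doses together (the mean of the STING KO effects) 3 members were called, SAMHD1, ADAR and APOBEC3F, again all lower in STING KO cells, where 7.43% of all tested genes were called. The median log2 change of the 8 tested members was -0.17 at 0 Gy and -0.040 after RT, beside medians of -0.021 and -0.017 over all tested genes. APOBEC3A, APOBEC3D and APOBEC3H, which were near the limit of detection, are included in these medians.

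SAMHD1 carried the largest called difference among the members. In unirradiated STING WT cells its TPM was 46.7, 44.8 and 38.3, and in unirradiated STING KO cells it was 24.5, 26.7 and 26.4. In irradiated STING WT cells it was 55.0, 57.0 and 53.2, and in irradiated STING KO cells 29.2, 30.2 and 29.8. Every STING KO library was thus below every STING WT library, and the irradiated STING KO libraries were also below the unirradiated STING WT libraries. SAMHD1 fell in STING KO cells by 0.72 on the log2 scale at 0 Gy (SE 0.072, limma adjusted p = 4.4e-04). After RT it fell in STING KO cells by 0.87 (SE 0.072, limma adjusted p = 7.2e-05), and mean TPM was 0.540 times that of STING WT cells. Among the 15973 tested genes its change ranked 191 from the lowest at 0 Gy and 175 from the lowest after RT.

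The start of SAMHD1 is shown because of this difference. The gene lies on the minus strand at chr20:36889773-36951901 of GRCh38 in the GENCODE annotation. RefSeq (GRCh38.p14) gives 1 promoter window for it, 250 bases before to 50 bases after the RefSeq start of transcription at 36951708. The GENCODE gene model begins upstream of that start, at 36951901, so part of the window lies inside it. The window, chr20:36951659-36951958 on the minus strand, is printed 5′ to 3′ with the first transcribed base by RefSeq in capitals.
SAMHD1: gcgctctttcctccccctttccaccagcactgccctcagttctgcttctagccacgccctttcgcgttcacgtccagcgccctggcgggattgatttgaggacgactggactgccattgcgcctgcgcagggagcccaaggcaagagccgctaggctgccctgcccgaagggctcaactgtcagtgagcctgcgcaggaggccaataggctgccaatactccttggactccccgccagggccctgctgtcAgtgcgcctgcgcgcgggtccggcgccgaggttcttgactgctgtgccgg
The window is rich in G and C (65.7%). It held neither GAAANNGAAA, the core of the element through which interferon acts on many promoters, nor TTCNNNGAA, the gamma-activated site, on either strand. Among 35116 RefSeq promoter windows of the same length, 3.57% held the first motif and 7.66% the second. Matches are counts of letters only, and elements outside the window were not searched.

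SAMHD1 was also higher after RT. In STING WT cells it rose by 0.35 after RT (SE 0.072, limma adjusted p = 0.030), and all 3 irradiated libraries were above all 3 unirradiated ones. In STING KO cells the libraries also did not overlap, but the change of 0.20 (SE 0.072) was not called (limma adjusted p = 0.18). The difference between the 2 radiation effects was -0.15 with a 95% interval of -0.37 to 0.08 (limma adjusted p = 0.86), so a difference in radiation response between genotypes was not shown. Averaged over genotypes, RT raised SAMHD1 by 0.27 (SE 0.051, limma adjusted p = 0.0083). The call in STING WT cells was lost in 5 of 12 fits that each left out 1 library and in the fit with only the 6 libraries of STING WT cells (limma adjusted p = 0.13). The libraries whose removal lost it were STING WT, 0 Gy replicates 2 and 3 and all 3 replicates of STING WT, RT, with limma adjusted p between 0.053 and 0.099. Of the 100-base windows of SAMHD1 transcripts, 7.81% also occur in TLDC2, on the opposite strand, and the TPM of TLDC2 did not pass 0.106 in any library.

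ADAR, the most abundant member, also differed between genotypes, by a smaller amount. Its TPM was 209, 207 and 198 in unirradiated STING WT cells and 189, 182 and 196 in unirradiated STING KO cells. After RT it was 230.1, 240.4 and 222 in STING WT cells and 188, 199 and 179.6 in STING KO cells. At both doses the genotypes did not overlap, narrowly so at 0 Gy, and the highest values were those of irradiated STING WT cells. At 0 Gy the STING KO effect of -0.11 (SE 0.050) was not called (limma adjusted p = 0.34). After RT ADAR fell in STING KO cells by 0.29 (SE 0.050, limma adjusted p = 0.011), and mean TPM was 0.818 times that of STING WT cells. Over both doses it fell in STING KO cells by 0.20 (SE 0.035, limma adjusted p = 0.0074).

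The radiation effect on ADAR was 0.17 in STING WT cells (95% interval 0.06 to 0.28, limma adjusted p = 0.098) and -0.0045 in STING KO cells (95% interval -0.12 to 0.11, limma adjusted p = 0.98), and neither was called. The difference between them, -0.18 (SE 0.071), had an unadjusted p of 0.032 in limma and an adjusted p of 0.74, and was therefore not shown. No member was called for a difference of radiation effects by limma (1 of the 8, ADAR, had an unadjusted p under 0.05), beside 0.0188% of all tested genes. The call of ADAR after RT was lost without STING WT, RT replicate 2 (limma adjusted p = 0.050) and in the fit to only the irradiated libraries (limma adjusted p = 0.079). Averaged over genotypes the radiation effect on ADAR was 0.08 (limma adjusted p = 0.18).

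ADAR is known to make a long, interferon-inducible protein and a shorter, constitutive one from different promoters, which a value per gene does not separate. It lies on the minus strand at chr1:154582057-154628013 of GRCh38. RefSeq gives 3 start sites for it, of which the most upstream and the most downstream are shown. The value measured is for the gene as a whole and was not split by start site. The upstream window is chr1:154627948-154628247 and the downstream window is chr1:154608748-154609047, both on the minus strand. They are printed 5′ to 3′ with the first transcribed base by RefSeq in capitals.
ADAR upstream start: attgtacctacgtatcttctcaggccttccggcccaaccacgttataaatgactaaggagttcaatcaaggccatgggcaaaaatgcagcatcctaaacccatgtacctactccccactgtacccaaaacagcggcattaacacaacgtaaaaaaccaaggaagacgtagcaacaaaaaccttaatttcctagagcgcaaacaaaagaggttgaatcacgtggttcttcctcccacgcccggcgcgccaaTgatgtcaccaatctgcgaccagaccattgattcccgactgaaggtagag
ADAR downstream start: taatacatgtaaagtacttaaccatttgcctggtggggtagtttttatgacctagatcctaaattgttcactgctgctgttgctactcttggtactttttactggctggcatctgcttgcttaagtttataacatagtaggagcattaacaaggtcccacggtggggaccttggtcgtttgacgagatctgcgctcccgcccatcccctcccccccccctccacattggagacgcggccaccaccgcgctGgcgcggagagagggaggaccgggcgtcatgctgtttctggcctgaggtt
G and C made up 47.7% of the upstream and 53.0% of the downstream window. Neither these windows nor the third one held the interferon element core or the gamma-activated site. The windows were not assigned to either protein form here.

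The second comparison was between irradiated and unirradiated cells. APOBEC3B rose in both genotypes, SAMHD1 was called in STING WT and APOBEC3F in STING KO cells, and no member was called lower. In STING WT cells 2 of 8 tested members were called, APOBEC3B and SAMHD1, compared with 3.74% of all tested genes. In STING KO cells 2 were called, APOBEC3B and APOBEC3F, compared with 3.69% of all tested genes. Averaged over genotypes 3 were called, APOBEC3B, APOBEC3F and SAMHD1, where 10.2% of all tested genes were. All of these calls were higher after RT. The comparisons within a genotype and those between genotypes share libraries and are not independent of each other. The median log2 change of the 8 tested members after RT was 0.21 in STING WT and 0.34 in STING KO cells, beside 0.017 and 0.019 over all tested genes. These medians include APOBEC3A, APOBEC3D and APOBEC3H, which were near the limit of detection. APOBEC3D reached a TPM of 1 only in irradiated libraries and passed the filter through them. A rise of the members as a set was not tested.

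**Figure D2:**
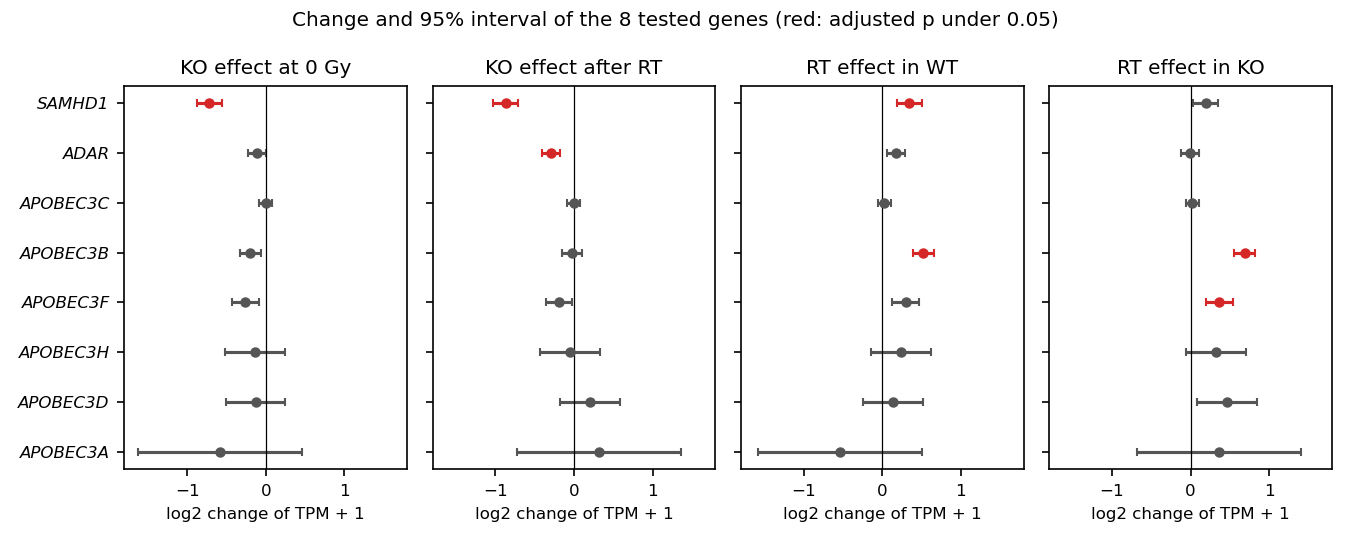
Log2 change of TPM + 1 with its 95% interval for the 8 tested genes in 4 comparisons (KO effect, STING KO minus STING WT; RT effect, irradiated minus unirradiated), with red marking a limma adjusted p under 0.05. SAMHD1 was called in 3 panels, APOBEC3B in the panels of both radiation effects, and the intervals of APOBEC3C were the narrowest and included 0 in each panel.

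APOBEC3B, a deaminase found in the nucleus and known as a source of mutations in tumors, gave the largest called radiation response among the members. In unirradiated cells its TPM was 83.6, 93.7 and 94.2 with STING and 78.6, 76.5 and 81.2 without it. After RT it was 135, 134 and 122 in STING WT cells and 123, 129 and 130.4 in STING KO cells. Every irradiated library was above every unirradiated one, and after RT the genotypes overlapped. APOBEC3B rose by 0.52 in STING WT cells (SE 0.060, limma adjusted p = 0.0014). It rose by 0.69 in STING KO cells (SE 0.060, limma adjusted p = 3.4e-04). Mean TPM after RT was 1.44 times that of unirradiated cells with STING and 1.62 times without it. The difference between the 2 radiation effects was 0.17 with a 95% interval of -0.02 to 0.36 (limma adjusted p = 0.76), so neither a larger response in STING KO cells nor an equal one was shown. Averaged over genotypes the change ranked 203 from the highest among all tested genes (0.61, SE 0.042, limma adjusted p = 2.5e-05).

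The STING KO effect on APOBEC3B was not called. At 0 Gy it was -0.20 (SE 0.060, limma adjusted p = 0.16), although all 3 STING KO libraries were below all 3 STING WT libraries. After RT it was -0.026 with a 95% interval of -0.16 to 0.11 (limma adjusted p = 0.87). Over both doses it was -0.11 (SE 0.042, limma adjusted p = 0.15). Reads of APOBEC3B are partly shared: 26.6% of the 100-base windows of its transcripts also occur in another gene, mostly APOBEC3A, whose gene model runs into APOBEC3B on the same strand. How such reads were divided between the 2 genes is not given in the sources used here, and APOBEC3A never passed a TPM of 2.08.

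APOBEC3F, a deaminase that restricts retroviruses, had TPM of 11.2, 11.4 and 11.5 in unirradiated STING WT cells and 8.82, 9.23 and 9.96 in unirradiated STING KO cells. After RT its TPM was 13.4, 14.3 and 14.9 in STING WT cells and 11.8, 11.6 and 13.7 in STING KO cells. The irradiated libraries of each genotype were above its unirradiated ones, and the genotypes overlapped only after RT. APOBEC3F rose after RT in STING KO cells by 0.37 (SE 0.076, limma adjusted p = 0.028). In STING WT cells the radiation effect was 0.30 (SE 0.076, limma adjusted p = 0.062) and not called. The difference between the 2 was 0.07 (95% interval -0.17 to 0.31, limma adjusted p = 0.94). Averaged over genotypes it rose after RT by 0.33 (SE 0.054, limma adjusted p = 0.0038).

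The STING KO effect on APOBEC3F was -0.26 at 0 Gy (SE 0.076, limma adjusted p = 0.14) and -0.19 after RT (SE 0.076, limma adjusted p = 0.22). Over both doses APOBEC3F fell in STING KO cells by 0.23 (SE 0.054, limma adjusted p = 0.031), a call that was lost in 12 of 19 alternatives, 9 of which left out 1 library, with limma adjusted p up to 0.075. The call in STING KO cells after RT was lost without STING KO, 0 Gy replicate 1 or 2 or STING KO, RT replicate 1 or 3 (limma adjusted p between 0.052 and 0.092). It was also lost in the fit to only the STING KO libraries (limma adjusted p = 0.14). Of the 100-base windows of APOBEC3F transcripts, 13.3% also occur in another gene, mostly APOBEC3G.

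APOBEC3C, the most abundant APOBEC3 transcript in these cells, differed little between groups. Its TPM was 142, 140.4 and 138 in unirradiated STING WT cells and 139, 139 and 142 in unirradiated STING KO cells. With radiation it was 139, 147 and 141 in STING WT cells and 145, 143 and 139 in STING KO cells. The libraries of all groups overlapped. The STING KO effect was -0.0014 at 0 Gy (95% interval -0.085 to 0.082) and -0.0020 after RT (95% interval -0.085 to 0.081), and its sign at either dose changed with the scaling between libraries. The radiation effect was 0.025 in STING WT and in STING KO cells, both with a 95% interval of -0.06 to 0.11, and in STING KO cells its sign changed with median-of-ratios factors. No effect on APOBEC3C was called. None of the 100-base windows of its transcripts occurs in another gene.

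The make-up of the APOBEC3 transcripts is given as a description. The summed TPM of the 7 APOBEC3 genes was 245 ± 5.07 (SD, n = 3) in unirradiated STING WT cells and 230.2 ± 4.47 in unirradiated STING KO cells. The sum after RT was 290.4 ± 8.68 with STING and 286 ± 2.36 without it. APOBEC3B made up 36.9% ± 1.78 of the sum in unirradiated STING WT and 34.2% ± 0.385 in unirradiated STING KO cells. Its share after RT was 44.8% ± 1.52 and 44.6% ± 1.05. The mean ratio of APOBEC3B to APOBEC3C was 0.646 in STING WT and 0.562 in STING KO cells at 0 Gy. After RT it was 0.912 in STING WT and 0.897 in STING KO cells, and no irradiated library was as low as an unirradiated one. In no library did APOBEC3B pass APOBEC3C, since the highest ratio was 0.970, in STING WT, RT replicate 1. APOBEC3A, D, G and H together made up 1.86% of the sum or less.

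**Figure D3:**
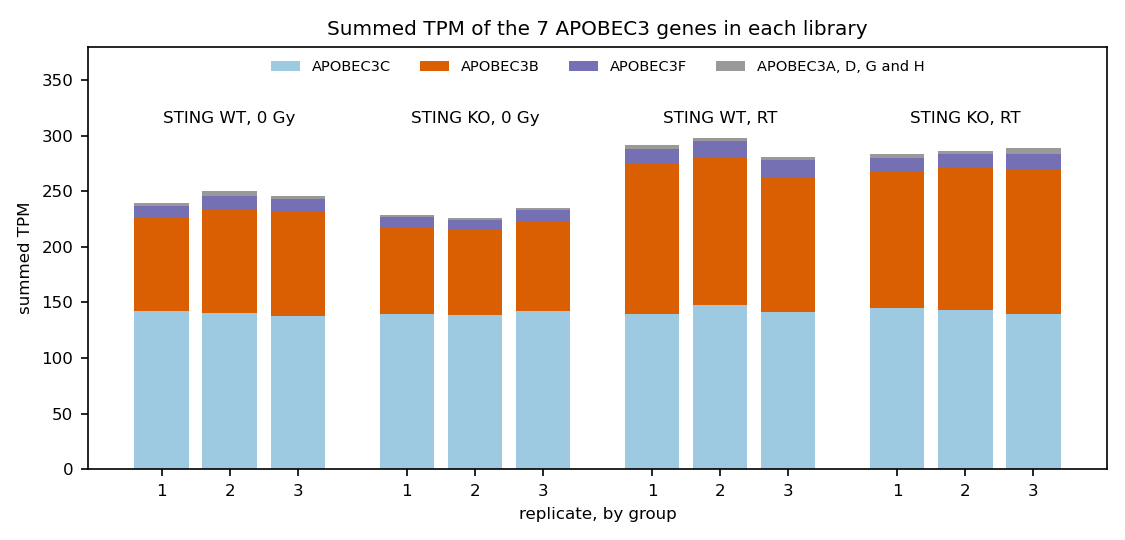
Summed TPM of the 7 APOBEC3 genes in each of the 12 libraries, stacked by gene on a linear axis that starts at 0. The height of APOBEC3C was nearly the same in all libraries, and the taller bars after RT came mostly from APOBEC3B.

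The remaining members were too low for firm statements. APOBEC3A, a deaminase with strong activity on single-stranded DNA, had TPM of 1.13, 1.58 and 0.459 in unirradiated STING WT cells and 0.581, 0.531 and 0 in unirradiated STING KO cells. In irradiated libraries it was 1.65, 0 and 0 in STING WT cells and 0.666, 0 and 2.08 in STING KO cells. The libraries of one group were as far apart as those of different groups, and the STING KO effect at 0 Gy of -0.58 had a 95% interval of -1.62 to 0.47 (limma adjusted p = 0.64). The radiation effect in STING WT cells of -0.53 had an interval just as wide, from -1.58 to 0.51. Of the 100-base windows of APOBEC3A transcripts, 18.4% also occur in APOBEC3B, and the level of APOBEC3A is uncertain for this reason too.

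APOBEC3D, a restriction factor with a pair of deaminase domains, had TPM from 0.618 to 0.983 in unirradiated and from 0.685 to 1.63 in irradiated libraries. It reached a TPM of 1 in no unirradiated library and was tested only through irradiated ones, a selection that favours a rise after RT. Its radiation effect was 0.47 in STING KO cells (SE 0.17, limma adjusted p = 0.18) and 0.30 averaged over genotypes (SE 0.12, limma adjusted p = 0.15). Its value cannot be assigned firmly, because 80.2% of the 100-base windows of its transcripts also occur in another gene, nearly all of them in AL022318.4, a gene model that joins APOBEC3C and APOBEC3D and never passed a TPM of 0.106. APOBEC3H, a single-domain deaminase that differs between people in stability, ranged from 0.633 to 1.49 in unirradiated and from 1.04 to 1.66 in irradiated libraries. It reached a TPM of 1 in 2 unirradiated libraries, fewer than the filter asks, and in every irradiated one. Its radiation effect was 0.33 in STING KO cells (SE 0.17, limma adjusted p = 0.36) and 0.28 averaged over genotypes (SE 0.12, limma adjusted p = 0.18). APOBEC3G, the member best known for restricting HIV, ranged from 0 to 0.530. Permuting labels within dose for genotype and within genotype for dose (400 relabellings, smallest possible p 0.005, two-sided exact permutation tests) gave an unadjusted p of 0.39 for genotype and 0.395 for radiation.

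The 7 APOBEC3 genes lie side by side on the plus strand of chromosome 22, from the start of APOBEC3A at 38952741 to the end of APOBEC3H at 39104067 (GRCh38). Within this stretch called genes stood beside genes that were not called. APOBEC3B, at chr22:38982347-38992804, rose in both genotypes, whereas the interval of the next gene, APOBEC3C at chr22:39014083-39020352, included 0. Of 13 listed genes on either side of the cluster, 3 were called for the radiation effect in each genotype. The share of all tested genes called was 3.74% in STING WT and 3.69% in STING KO cells. PDGFB, which encodes a growth factor, rose from a mean TPM of 10.1 to 17.2 in STING WT and from 9.66 to 15.2 in STING KO cells. NPTXR, a neuronal pentraxin receptor, rose from 16.3 to 21.3 and from 16.5 to 25.1, while SUN2, a protein of the nuclear envelope, fell from 174 to 129 and from 184 to 136. The median change of the 13 was 0.098 in STING WT and 0.039 in STING KO cells, and none was called for STING KO at 0 Gy or after RT by limma (0 and 3 with an unadjusted p under 0.05).

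**Figure D4:**
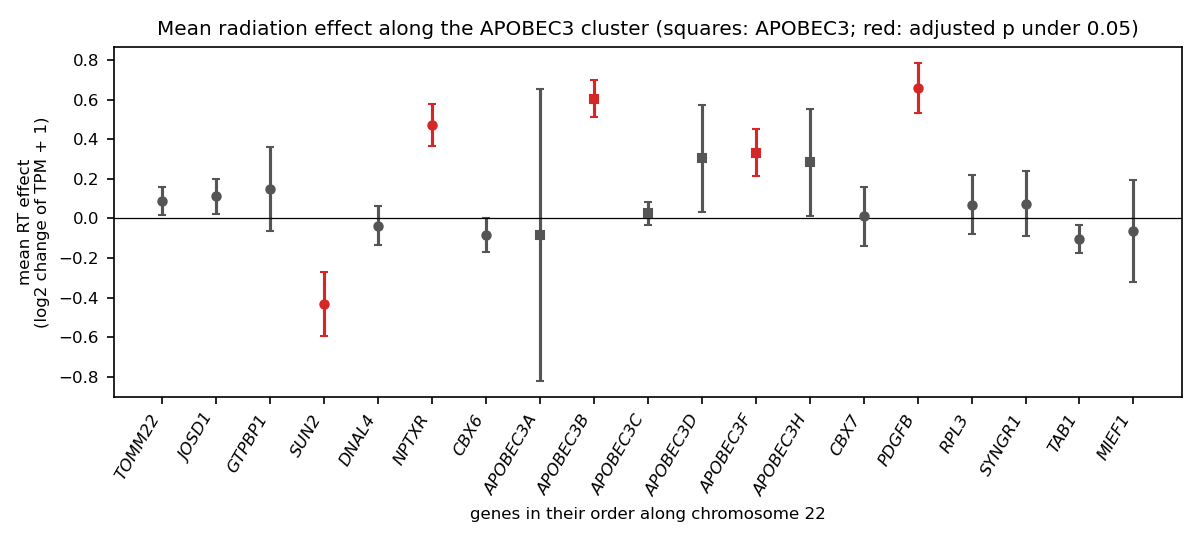
Radiation effect averaged over both genotypes (log2 change of TPM + 1, with 95% interval) for the 6 tested APOBEC3 genes (squares) and 13 neighbours (circles), in their order along chromosome 22 and not to scale, with red marking a limma adjusted p under 0.05. PDGFB (0.66) and APOBEC3B (0.61) were highest and SUN2 (-0.43) lowest, and APOBEC3C, next to APOBEC3B, was at 0.025.

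For each called member, the 3 tested genes with the most similar profile were found by the root mean square difference of centred log2(TPM + 1) over the 12 libraries. For SAMHD1 these were APOL2, an apolipoprotein L gene (0.12), IFIT5, an interferon-induced RNA-binding protein (0.12), and HOXB9, a homeobox transcription factor (0.13), where the spread of SAMHD1 about its own mean was 0.43. For ADAR they were AC093673.1, GALNT18 and BIK (0.044 to 0.049, with a spread of ADAR of 0.13). For APOBEC3B they were NES, AKAP12 and PARM1 (0.085 to 0.093, with a spread of 0.32). For APOBEC3F they were PMP22, MYL9 and GEM (0.056 to 0.064, with a spread of 0.21). The 4 lists had no gene in common.

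Genes with related roles were examined from lists compiled by known function, with earlier results of these data known. For the response to double-stranded RNA, the pathway that ADAR holds in check, 10 genes were tested (of 12 listed). At 0 Gy 7 of the 10 were called lower in STING KO cells and none higher, beside 1.73% of all tested genes called in either direction. After RT 7 were called lower and 1 higher, beside 3.59% of all tested genes. DDX58, the sensor RIG-I, had a mean TPM of 39.6 in STING WT and 4.25 in STING KO cells at 0 Gy, and 66.9 and 5.34 after RT (log2 change -2.94 and -3.42). OAS2 and OAS1, synthetases activated by double-stranded RNA, changed by -2.72 and -1.70 at 0 Gy. The median change of the list was -0.84 at 0 Gy and -1.35 after RT. The difference for SAMHD1 was smaller than these medians at 0 Gy and after RT, and that for ADAR was smaller still. In STING WT cells DDX58 and OAS3 rose after RT. In STING KO cells none of the 10 was called for radiation by limma (1 with an unadjusted p under 0.05, DDX58 at 0.27). None of the 10 was called for a difference of radiation effects by limma (5 with an unadjusted p under 0.05). Of all 15973 tested genes only 3 were called in this comparison, and 1056 had an unadjusted p under 0.05. The median difference of the 10 genes was -0.48, with 8 of them below 0, beside a median of -0.0024 over all tested genes. A radiation response that differed between genotypes was therefore not shown for any of the 10, in a comparison that called few genes at all.

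**Figure D5:**
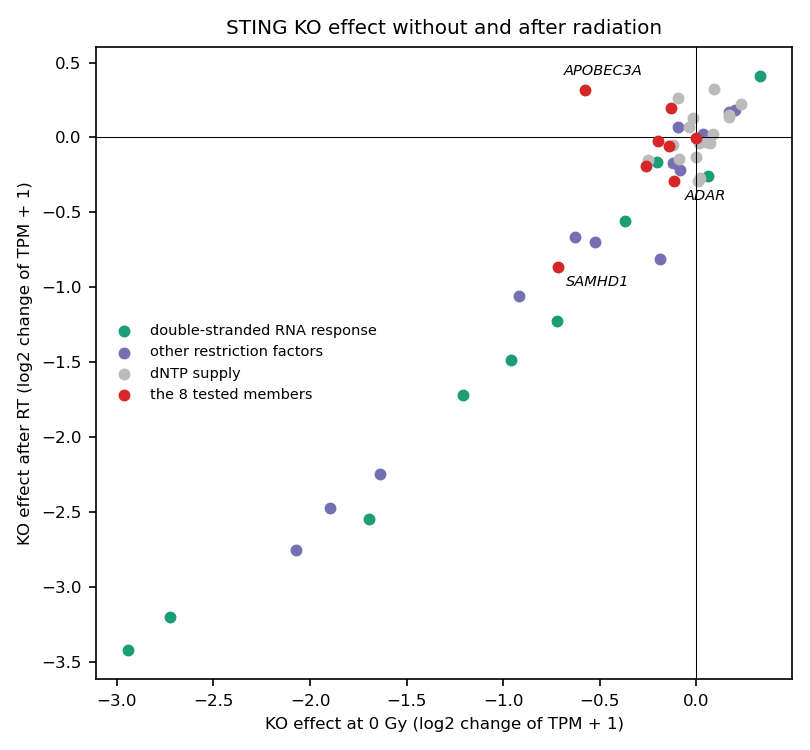
Difference between STING KO and STING WT cells at 0 Gy (horizontal axis) and after RT (vertical axis), both as log2 change of TPM + 1, with 1 point per gene (red, the 8 tested members; green, double-stranded RNA response; purple, other restriction factors; grey, dNTP supply). The double-stranded RNA response reached -2.94 and -3.42, SAMHD1 lay at -0.72 and -0.87, and the other members lay closer to 0 on both axes, with APOBEC3A (-0.58 and 0.32) the member farthest off the diagonal.

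Among the other retrovirus restriction factors, 6 of 13 tested genes (of 14 listed) were called lower in STING KO cells at 0 Gy and 6 after RT. No gene of this list was called higher, and 1.73% and 3.59% of all tested genes were called in either direction. MX2, which blocks nuclear import of HIV, changed by -2.07 at 0 Gy and -2.76 after RT. ISG20, an exonuclease, changed by -1.89 and -2.47, and BST2, which tethers virus particles to the cell, by -1.64 and -2.24. All 3 are known interferon-stimulated genes. The median of the list was -0.19 at 0 Gy and -0.66 after RT. After RT 1 gene of the list was called in STING WT cells, ZC3HAV1, which rose (0.21, limma adjusted p = 0.045). None was called for radiation in STING KO cells by limma (2 with an unadjusted p under 0.05). None was called for a difference of radiation effects by limma (1 with an unadjusted p under 0.05), beside 0.0188% of all tested genes. A difference between genotypes was therefore not shown.

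Aicardi-Goutieres syndrome is an inflammatory disease that can follow from loss of SAMHD1 or ADAR. Of 6 other listed genes whose mutation causes it, 1 was called lower in STING KO cells, IFIH1, at 0 Gy and after RT. Among all tested genes, 1.73% and 3.59% were called in either direction. IFIH1, the sensor MDA5 and also a member of the double-stranded RNA list, had a mean TPM of 23.5 in STING WT and 13.8 in STING KO cells at 0 Gy, and of 27.9 and 11.4 after RT (log2 change -0.72 and -1.23). None of the 6 was called for radiation in either genotype by limma, and none had an unadjusted p under 0.05.

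Genes around the substrate and the regulation of SAMHD1 were examined next. Among all tested genes, 1.73% and 3.59% were called for STING KO at 0 Gy and after RT. For radiation, 3.74% were called in STING WT and 3.69% in STING KO cells. Of 17 genes of dNTP supply, none was called for STING KO at 0 Gy (2 with an unadjusted p under 0.05 in limma) and none for radiation in STING WT cells (3 with an unadjusted p under 0.05). After RT 1 was called for STING KO, and 1 was called for radiation in STING KO cells. NME2, a nucleoside diphosphate kinase, was lower in STING KO cells after RT (-0.29, limma adjusted p = 0.027). CDA, which deaminates free cytidine, rose after RT in STING KO cells from a mean TPM of 4.46 to 6.87 (limma adjusted p = 0.036). In STING WT cells its change of 0.43 was not called (limma adjusted p = 0.075). Among 7 genes for the phosphorylation of SAMHD1, which is known to reduce its restriction of viruses, CDKN1A, an inhibitor of the kinases involved, was lower in STING KO cells (26.4 and 15.8 mean TPM at 0 Gy, 45.9 and 24.5 after RT). Of these 7 genes, 1 was called higher and 2 lower for radiation in each genotype. CDKN1A rose after RT in both genotypes (0.78 and 0.60). CCNA2, the cyclin of the kinase that phosphorylates SAMHD1, fell after RT in both (-0.20 and -0.21), as did CCNA1 (-0.45 and -0.42). Phosphorylation itself was not measured.

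Genes around APOBEC3B were examined in the same way. Of 16 known regulators of its transcription, 2 were called for radiation in each genotype, all higher, beside 3.74% and 3.69% of all tested genes. NFKB2, the p52 precursor of the non-canonical NF-kB pathway, rose in both genotypes (0.41 and 0.31). RELB, its partner, rose in STING WT cells (0.46, limma adjusted p = 0.036), with a similar value in STING KO cells (0.41, limma adjusted p = 0.055). LIN37, a subunit of the DREAM repressor complex, rose in STING KO cells from a mean TPM of 7.40 to 10.1. That level was close to the 10.1 of unirradiated STING WT cells. No regulator of the 16 was called for a difference of radiation effects by limma (3 with an unadjusted p under 0.05). None of the 16 was called for STING KO by limma, at 0 Gy (1 with an unadjusted p under 0.05) or after RT (2 with an unadjusted p under 0.05). Of 12 genes of uracil and base excision repair, which remove the products of cytidine deamination, APEX1, an endonuclease at abasic sites, was higher in STING KO cells after RT (166 against 98.2 mean TPM, limma adjusted p = 0.038), and none was called for radiation by limma (2 and 3 with an unadjusted p under 0.05).

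Of 12 other listed genes of the AID/APOBEC and adenosine deaminase families, 6 passed the filter on low values. None was called by limma in any of the 4 simple comparisons (0, 1, 2 and 0 with an unadjusted p under 0.05, for STING KO at 0 Gy and after RT and for radiation in STING WT and STING KO cells). Averaged over genotypes ADAT1, which edits transfer RNA, rose after RT by 0.16 (SE 0.045, limma adjusted p = 0.049).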

How the data were processed

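Total RNA was purified with oligo-dT beads and sequenced as 100 bp paired ends. The authors deposited TPM per gene, summing to 1000000 in each library, with no scaling between libraries and no read depth. The submitters' processing notes name HISAT2, StringTie, DESeq2 and hg38; the annotation release and strand setting are not given in the sources used here. Columns carry line names. The name of the non-targeting guide line was taken as STING WT and the other name as STING KO, as in the heads of the study's supplementary table of the same values taken relative to unirradiated STING WT cells.

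From the deposited TPM, log2(TPM + 1) entered a linear model (limma 3.58.1, R 4.3.3; 4 group means, eBayes with trend, 8 residual degrees of freedom, 7 contrasts). This replaces the authors' count test. The code was tested on simulated data. Members, lists and contrasts were chosen with earlier results of these data known. Named are the 9 members, TMEM173, at most 3 called genes per list and contrast by size of change, and the 3 nearest profiles per called member. Marker genes were listed too. The results of 2 listed genes are not reported here. Identifiers were matched without version to GENCODE 29 (6 of 9 members with version), which gave coordinates and 100-base windows. RefSeq promoters were matched by symbol for APOBEC3H, SAMHD1 and ADAR. APOBEC3A, APOBEC3B, APOBEC3C, APOBEC3D, APOBEC3F and APOBEC3G were not matched. The results of the 8 tested members, not those of the lists, were also computed with no filter, with a minimum mean TPM of 5 (which APOBEC3A, APOBEC3D and APOBEC3H do not reach), with 0.1 as pseudocount, after quantile normalization or median-of-ratios scaling, without the eBayes trend, with a replicate block, with only the groups compared (simple contrasts only), and without each library in turn. The labels give no batch or date.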

Additional observations from a re-analysis of the deposited data

How the results depend on the processing

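Of 740 alternative values of the 38 log2 changes given above, 698 kept both direction and side of the threshold, 26 lost a call, 1 gained one (APOBEC3F, radiation in STING WT cells, without STING KO, RT replicate 3, limma adjusted p = 0.041) and 15 changed sign, all of these near 0 and not called. Where 1 library was left out, the number of members called ranged from 1 to 2 for the STING KO effect after RT and for the radiation effect in STING KO cells, from 1 to 3 for the radiation effect in STING WT cells and from 2 to 3 for the mean STING KO effect. With only the libraries of the groups compared, the first 3 of these counts were each 1, and the number of genes called fell from 276 to 103 for STING KO at 0 Gy, from 573 to 252 after RT, from 597 to 166 for radiation in STING WT and from 590 to 195 in STING KO cells. This fit has fewer residual degrees of freedom. Over libraries left out these 4 gene counts were 172 to 292, 313 to 542, 242 to 526 and 268 to 553, those of the mean STING KO and mean radiation effects were 788 to 951 (1187 with all libraries) and 1142 to 1355 (1627), and that of the difference of radiation effects was 1 to 9 (3), with 7 under no filter on low values and 1 without the eBayes trend or with the replicate block.

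Same-numbered libraries of different groups did not deviate together (18 pairs, correlations from -0.060 to 0.064), so no pairing by number was seen in the values. Whether same-numbered libraries were handled together is not given in the labels. With the replicate number as a block, 1 member was called for radiation in STING WT cells (SAMHD1 was lost, limma adjusted p = 0.053). The block changed no other call of a member, while the genes called fell from 573 to 378, from 597 to 315 and from 590 to 359 in the last 3 comparisons above.

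The changes of sign were as follows. APOBEC3C gave a STING KO effect of 0.025 (median-of-ratios factors) and 0.0028 (quantile normalization) at 0 Gy, with -0.014 to 0.0098 over libraries left out, and of 0.018 and 0.012 after RT, with -0.019 to 0.021. Its radiation effect in STING KO cells was -0.0052 with median-of-ratios factors. ADAR gave a radiation effect in STING KO cells of 0.0060 with quantile normalization and -0.042 to 0.031 over libraries left out. APOBEC3B gave a STING KO effect after RT of -0.074 to 0.0021 over libraries left out, and APOBEC3F a difference of radiation effects of -0.0014 to 0.11. TPM gives no depth, so whether the low values of APOBEC3A, D, G and H could show a difference is unknown.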
